A study of Homo sapiens with 14 samples.

Results

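The regions described here are the places where the antibodies against RING1A, RING1B and BMI1 gave a ChIP-seq peak in EED knockdown cells. Peaks of the 3 knockdown lists that shared at least 1 bp were merged, which turned 12068 peaks into 7826 regions, of 134320 regions when the peaks of all 14 lists of the series are merged. Each region then fell into 1 of 7 combinations by which of the 3 antibodies had a peak in it. The cells are DU145, an established human prostate cancer line, with a stable EED knockdown under puromycin selection. The control cells are DU145 with a scramble construct under the same selection. The titles give a single construct, sh3, for every knockdown library, and its own effects and those of reduced EED cannot be told apart. The antibodies against the 3 subunits are rabbit antibodies from Cell Signaling. Every antibody was used on 1 library of knockdown cells and 1 of control cells, so no value below has a replicate check and no p-value is given. All intervals are 95% intervals, exact (Clopper-Pearson) for shares and Newcombe for differences of shares. They cover counting error only and treat regions as independent, although many regions lie close together, so they may be too narrow. "Bound" means only that a peak was listed, and positions are hg19, without gene annotation or sequence of that build.

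RING1A and RING1B are the alternative ubiquitin ligases of Polycomb repressive complex PRC1, which mark histone H2A (uH2A). BMI1 is a partner of either ligase in the canonical form of the complex, which also carries a subunit that reads H3K27me3. H3K27me3 is placed by PRC2, which needs its subunit EED. Other forms of PRC1 can reach chromatin without that mark.

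The lists were of unequal size, with 4072 RING1A peaks, 1739 RING1B peaks and 6257 BMI1 peaks in knockdown cells, against 56011, 5155 and 20775 in control cells. The number of reads behind each list is unknown. In the RING1A, RING1B, BMI1 and H3K27me3 lists of both cell lines, every peak on chromosomes 22, X and Y has a height of 0 and its position within the peak written as 1. No peak on chromosomes 1 to 21 of these lists does. This touched 455 RING1A, 392 RING1B and 823 BMI1 knockdown peaks, and the median lengths of these peaks were 175, 200 and 175 bp. A height of 0 was therefore read as not recorded, and heights below refer to chromosomes 1 to 21.

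Most regions in knockdown cells carried a single subunit, and BMI1 alone was the most frequent combination. BMI1-only regions numbered 3175, or 40.6% of the 7826 (39.5 to 41.7). RING1A with BMI1 followed with 1770 regions (22.6%, 21.7 to 23.6), and RING1A alone with 1259 (16.1%, 15.3 to 16.9). All 3 subunits met in 866 regions (11.1%, 10.4 to 11.8). RING1B alone had 423 regions (5.41%, 4.91 to 5.93) and RING1B with BMI1 had 290 (3.71%, 3.30 to 4.15). The 2 ligases without BMI1 were seldom found together, in 43 regions (0.549%, 0.398 to 0.739).

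By covered length the order was different, because shared regions were longer. Regions with 2 or 3 subunits were 37.9% of the regions but 60.7% of the covered length. Regions with all 3 subunits covered 406.3 kb (24.3%), RING1A with BMI1 511.8 kb (30.7%) and BMI1 alone 446.1 kb (26.7%). More than the minimum number of peaks, such as 2 separate BMI1 peaks under 1 RING1A peak, was found in 161 of the 866 regions with all 3 subunits, and up to 10 peaks were joined in 1 region.

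Seen from each list, the 3 proteins differed in how often they stood alone. Of the RING1B peaks, 56.5% (54.1 to 58.8) lay in regions with all 3 subunits and 24.3% (22.3 to 26.4) in RING1B-only regions. Of the RING1A peaks, 45.5% (43.9 to 47.0) lay with BMI1 but not RING1B, 22.6% with both partners and 30.9% (29.5 to 32.4) alone. Of the BMI1 peaks, 50.7% (49.5 to 52.0) stood alone, 29.1% lay with RING1A only and 15.3% with both. With each list limited to its 1347 tallest peaks, the number of RING1B peaks with a height, BMI1 alone no longer led. Regions with all 3 subunits were then 510 of 2287 (22.3%, 20.6 to 24.1), RING1B-only regions 22.04%, RING1A-only regions 16.8%, BMI1-only regions 14.7%, and RING1A with BMI1 14.1%.

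The control lists gave another makeup. RING1A-only regions were 16.1% of the knockdown and 67.7% of the 64440 control regions. BMI1-only regions were 40.6% in knockdown and 11.4% in control cells, RING1B-only regions 5.41% and 0.767%, and regions with all 3 subunits 11.1% and 4.83%. In counts, regions with all 3 subunits were 866 in knockdown and 3110 in control cells, and RING1B-only regions 423 and 494. Within the RING1B list, the share of peaks standing alone was 24.3% in knockdown cells, against 9.58% (8.79 to 10.4) in control cells. Within the BMI1 list it was 50.7%, against 35.5%, and within the RING1A list 30.9%, against 77.8%. With 1347 tallest peaks from each list of each cell line, regions with all 3 subunits were 22.3% in knockdown and 35.5% (33.4 to 37.6) in control cells, the opposite direction to the full lists. This setting changes list size, peak height and, by leaving out chromosomes 22, X and Y, the chromosomes together. RING1B-only regions stayed the more frequent in knockdown cells, at 22.04% and 13.1% (11.7 to 14.7).

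**Figure D1:**
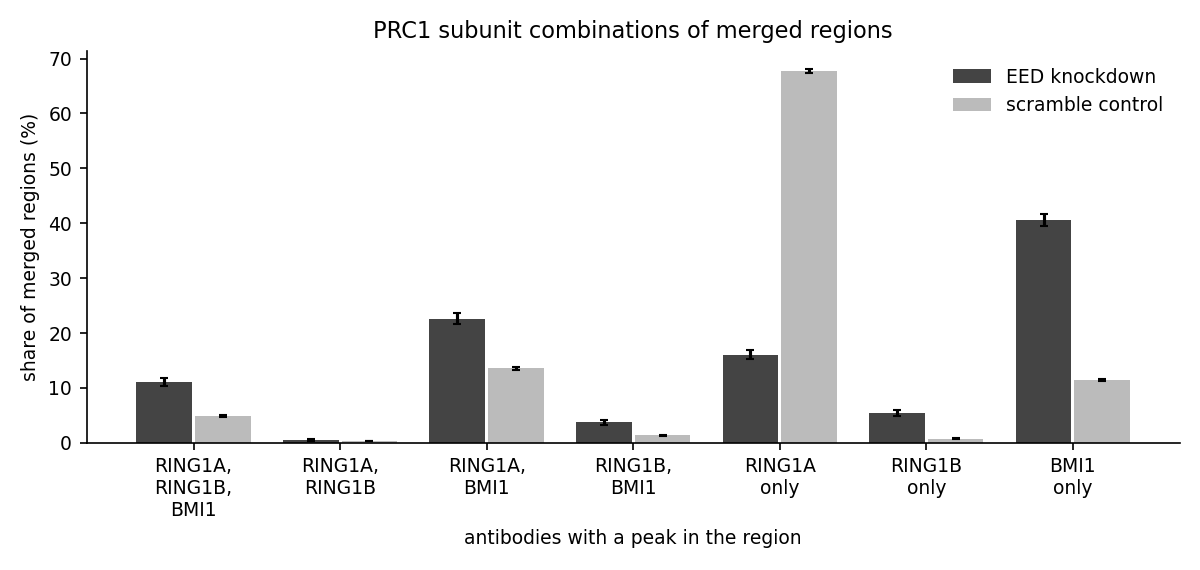
Bars give the share of merged regions (vertical axis, %) in each of the 7 subunit combinations (horizontal axis) in EED knockdown cells, dark, and scramble control cells, light, with exact 95% intervals as error bars. BMI1 alone leads in knockdown cells at 40.6% and RING1A alone in control cells at 67.7%.

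Region length followed the number of subunits. The median was 325 bp for regions with all 3 subunits (quartiles 250 and 525), 237.5 bp for RING1B with BMI1, 225 bp for RING1A with BMI1 and 200 bp for the 2 ligases together. Single-subunit regions had medians of 125 bp (BMI1), 125 bp (RING1B) and 100 bp (RING1A). Regions of at least 1 kb made up 7.39% of those with all 3 subunits (64 regions), 2.07% of those with RING1B and BMI1, 1.41% of those with RING1A and BMI1, and 2 of the 3175 BMI1-only regions. A region made of several peaks is longer by construction, and a longer peak meets another more easily.

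The same order held when each protein's own peaks were measured. RING1A peaks had a median length of 275 bp in regions with all 3 subunits, 175 bp where only BMI1 joined them and 100 bp where they stood alone. BMI1 peaks had medians of 275, 200 and 125 bp in the same 3 settings. RING1B peaks differed: their longest median, 225 bp (quartiles 150 and 325), was in regions with BMI1 but no RING1A peak, against 175 bp in regions with all 3 subunits and 125 bp alone. Outside dense clusters, defined below, the order turned, with 150 bp for RING1B peaks with BMI1 and 162.5 bp for those with both partners.

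Peak height gave the same split between the proteins. It was ranked within each list, because heights are not comparable between lists. In regions with all 3 subunits, 70.7% of RING1A peaks (67.3 to 73.9) and 74.7% of BMI1 peaks (71.5 to 77.7) belonged to the tallest 25% of their list. Among peaks standing alone these shares were 3.20% for RING1A and 5.09% for BMI1, differences of 67.5 points (64.0 to 70.7) and 69.6 points (66.3 to 72.6). In heights, RING1A peaks had medians of 84.0 with all 3 subunits and 46.1 alone, and BMI1 peaks of 126.0 and 59.0.

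RING1B peaks were not most often tall where all 3 proteins met, although the tallest single RING1B peak, of 6757.6, lay in such a region. Of the RING1B peaks in regions with all 3 subunits, 24.1% (21.3 to 27.2) were in the tallest 25% of the list, close to what the whole list holds. In regions with BMI1 but no RING1A it was 53.6% (46.04 to 61.02), 29.5 points more (21.6 to 37.1). RING1B-only peaks had 13.0%. Median RING1B heights were 56.0 with BMI1 alone as partner, 30.3 with both partners and 24 without partner. Outside dense clusters the share with BMI1 alone as partner was 31.4% of only 35 peaks (16.9 to 49.3), against 25.5% of 184 (19.4 to 32.5) with both partners. The intervals overlap there, so the difference was not detectable among those few peaks.

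**Figure D2:**
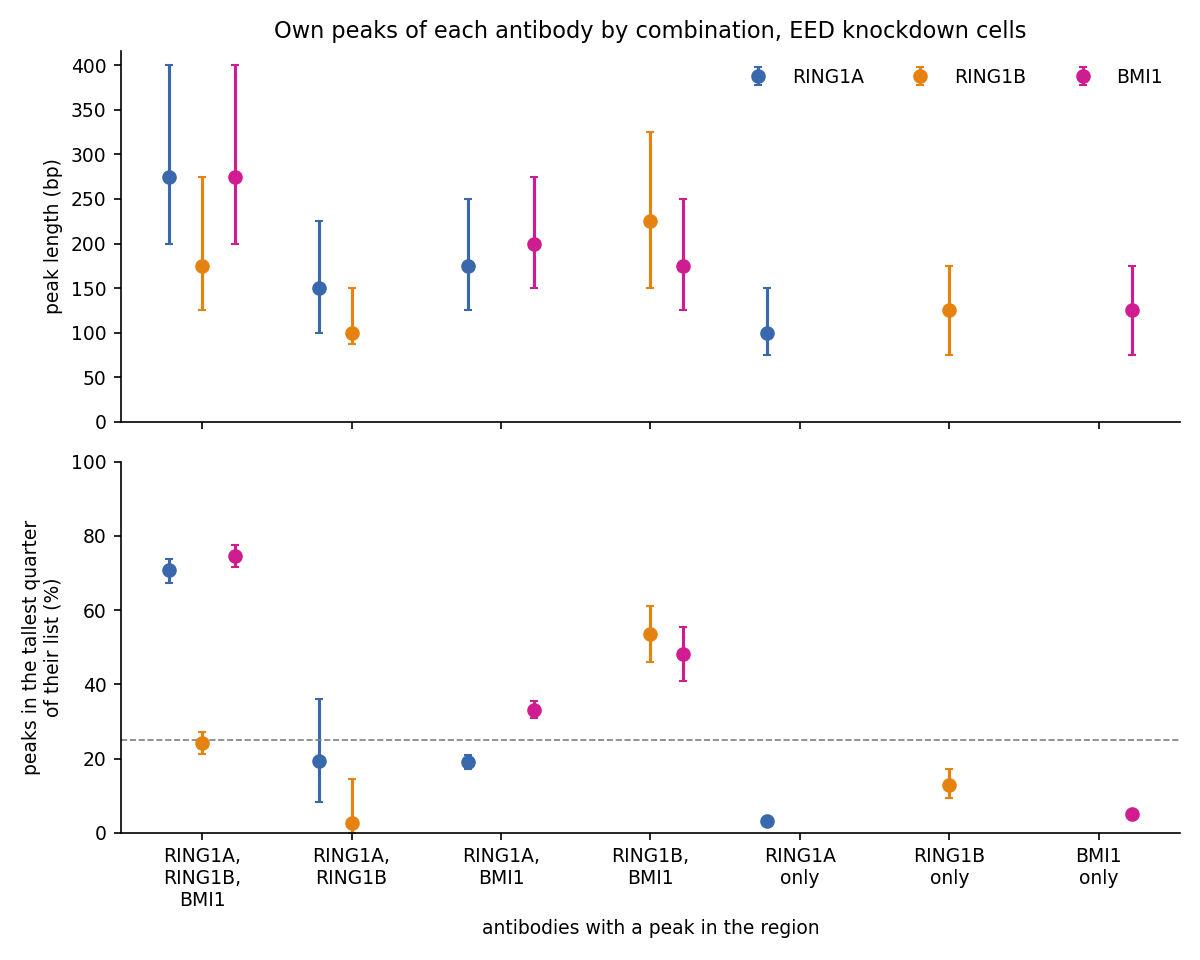
For each combination (horizontal axis), points give the median length of each antibody's own peaks in bp with quartiles as bars (upper panel) and the share of its peaks in the tallest 25% of its list with exact 95% intervals (lower panel, chromosomes 1 to 21, dashed line at 25%), in EED knockdown cells. By median length and share in the tallest 25%, RING1A and BMI1 peaks lead with all 3 subunits. RING1B peaks lead with BMI1 and no RING1A. That order of RING1B lengths was not seen outside dense clusters (150 and 162.5 bp). The RING1B shares there, 31.4% and 25.5%, had overlapping intervals.

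Where proteins shared a region, their highest points lay close together, reading the deposited offset as the place of the greatest height. Short distances are partly built in, because peaks share a region only by overlapping. No distance expected from overlap alone was computed. In the 725 regions with all 3 subunits on chromosomes 1 to 21, the highest points of RING1A and BMI1 lay a median of 18.5 bp apart (quartiles 7.5 and 47.5), those of RING1B and BMI1 28 bp, and those of RING1A and RING1B 29.5 bp. They were within 50 bp in 76.7%, 67.7% and 64.4% of the regions. RING1A and BMI1 peaks were of like length there, with RING1A longer in 41.7% and BMI1 longer in 43.2% of regions. The BMI1 peak was longer than the RING1B peak in 78.1% of these regions. In the 180 regions with RING1B and BMI1 alone the RING1B peak was instead longer in 55.0% and the BMI1 peak in 31.1%, and their highest points lay 15.5 bp apart.

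Heights of the proteins were correlated across shared regions, given as a description over regions that share the same libraries. Spearman's rho over the 725 regions was 0.785 for RING1A and BMI1, 0.718 for RING1B and BMI1 and 0.619 for RING1A and RING1B. It was 0.520 over 1580 regions with RING1A and BMI1 alone, and 0.763 over 180 with RING1B and BMI1 alone.

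By mean height percentile, the tallest regions with all 3 subunits lay on chromosome 10, at 42596751 to 42597350 and 42599426 to 42600300. At the first, heights were 2101.9 for RING1A, 6757.6 for RING1B and 10044.1 for BMI1, each at or above percentile 99.9 of its list. Both regions also had knockdown peaks of H3K27me3, EED and both uH2A antibodies, and control peaks of all 3 subunits. The longest region with all 3 subunits, of 4275 bp, lay on chromosome 5 at 34189351 to 34193625 and joined 9 peaks. Its heights of 109.1, 33.3 and 156.6 for RING1A, RING1B and BMI1 stood at percentiles 92.5, 59.7 and 92.9. No input or IgG list was used here, so places that give signal with any antibody cannot be told apart from bound places.

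Regions with partial combinations were named by the same rule, the 2 tallest and the longest of each. The tallest with RING1B and BMI1 lay on chromosome 16 at 46403476 to 46403800, with a RING1B height of 951.8 and a BMI1 height of 2613.7. The next lay on chromosome 3 at 196625576 to 196625750, with 843.2 and 1406.5, at 134175 bp from the nearest other region. The tallest RING1B-only region lay on chromosome 1 at 121484451 to 121484625, with a height of 2812.1 at percentile 99.6, knockdown peaks of EED and rabbit uH2A, and no control peak of any of the 3 subunits. A second one, on chromosome 10 at 42392626 to 42392700 with a height of 1197.4, lay only 25 bp from another region.

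No named region without RING1B reached the RING1A and BMI1 heights of the chromosome 10 pair. The tallest with RING1A and BMI1 lay on chromosome 19 at 37772976 to 37773275, with heights of 156.0 for RING1A and 262.0 for BMI1, and on chromosome 17 at 41400551 to 41401000, with 146.8 and 240.5. The longest, of 2300 bp, was on chromosome 3 at 195511551 to 195513850 and had peaks of all 4 other antibodies. The tallest BMI1-only region, on chromosome 12 at 20704326 to 20704475, reached 261.2 and stood 2923025 bp from any other region, with control peaks of all 3 subunits. Another lay on chromosome 9 at 68431401 to 68431600 with 203.7. The longest BMI1-only region, of 1125 bp, lay on chromosome 22 at 20713676 to 20714800. RING1A-only regions peaked on chromosome 21 at 11186676 to 11186825 with 515.1 and on chromosome 12 at 81444151 to 81444400 with 131.0, and the longest, of 500 bp, was on chromosome 7 at 1311751 to 1312250. The 2 ligases without BMI1 peaked on chromosome 9 at 68421751 to 68421900, with heights of 71.9 for RING1A and 62.8 for RING1B, and on chromosome 11 at 86426151 to 86426375, with 80.1 and 34.3.

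The combinations were spread unevenly over chromosomes. Chromosome 14 had the most regions for its size, 1142 in all or 10.6 per Mb, where the length of a chromosome is the largest end in any list. It held 407 of 1259 RING1A-only regions (32.3%, 29.7 to 35.0) and 466 of 3175 BMI1-only regions (14.7%, 13.5 to 16.0). Yet it held 11 of 866 regions with all 3 subunits (1.27%, 0.636 to 2.26) and 12 of 423 RING1B-only regions (2.84%, 1.47 to 4.90). The share with all 3 subunits was 16.95 points below the 18.2% of single-subunit regions (interval -18.2 to -15.5). In control cells chromosome 14 held 15.6% (14.3 to 16.9) of regions with all 3 subunits and 10.4% (10.1 to 10.7) of RING1A-only regions. The densest 1-Mb stretch of the chromosome in knockdown cells, 19000001 to 20000000, held 261 regions, of which 113 had RING1A with BMI1 and 103 BMI1 alone. The next, 32000001 to 33000000, held 173, of which 88 had RING1A alone and none all 3.

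RING1B without RING1A gathered instead on the sex chromosomes. Chromosome Y held 76 of the 290 regions with RING1B and BMI1 (26.2%, 21.2 to 31.7) and 62 of the 423 RING1B-only regions (14.7%, 11.4 to 18.4), but 2.94% of RING1A-only and 2.74% of BMI1-only regions. Chromosome X held 10.3% of regions with RING1B and BMI1 and 12.5% of RING1B-only regions, against 0.715% of RING1A-only and 1.42% of BMI1-only regions. Of all 7826 regions, 5.80% lay on chromosome Y and 2.29% on chromosome X. A single stretch of 97.5 kb on Y, at 58820026 to 58917525, held 65 of those 76 regions and 36 of those 62. On X, a stretch of 40.8 kb at 61682326 to 61723125 held 33 of the 53 RING1B-only regions. The RING1B-only share exceeded the RING1A-only share by 11.7 points on Y (8.48 to 15.5) and by 11.8 points on X (8.92 to 15.3). In control cells chromosome X held 13.97% of RING1B-only regions as well, and chromosome Y 5.26%. Regions with RING1B and BMI1 differed there, with 10.3% on chromosome X in knockdown and 0.334% (3 of 897) in control cells, and 26.2% on chromosome Y in knockdown and 9.92% in control cells. Regions with all 3 subunits were frequent on Y (114, or 13.2%) and not on X (10, or 1.15%). On chromosome 8, 68 of 259 regions (26.3%) carried all 3 subunits, while chromosome 13 had 37 regions and none with RING1B. A single stretch of 114.2 kb on chromosome 8, at 86726526 to 86840750, held 48 of those 68 and 100 regions in all.

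**Figure D3:**
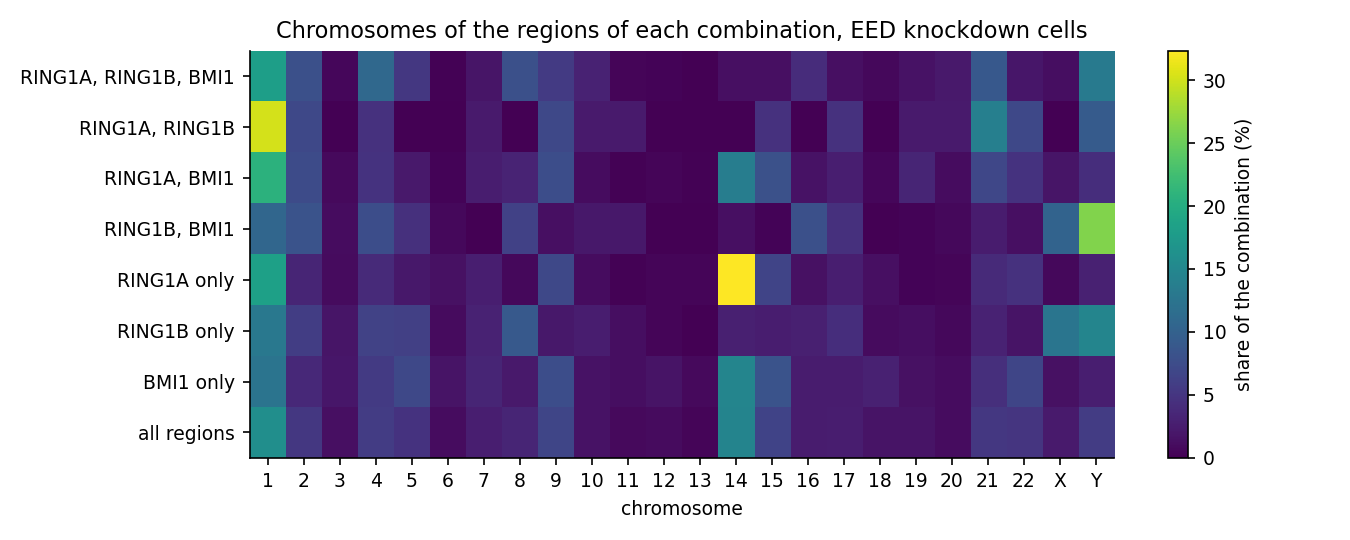
Colour gives the share of each combination's regions (rows, %) that lay on each chromosome (columns) in EED knockdown cells, with all 7826 regions in the lowest row. RING1A alone stands out on chromosome 14 at 32.3%, and RING1B with BMI1 on chromosome Y at 26.2%.

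The regions were clustered, and those that pair BMI1 with a ligase most. Of all regions, 79.0% had another region of any combination within 10 kb. It was 95.4% (93.8 to 96.7) of regions with all 3 subunits and 70.3% (69.0 to 71.6) of single-subunit regions, a difference of 25.1 points (23.1 to 26.9). RING1B with BMI1 stood at 96.2% (93.3 to 98.1), and BMI1 alone least at 66.6% (64.9 to 68.2). Median distances to the nearest region were 250 bp for RING1B with BMI1, 325 bp for all 3 subunits, 475 bp for RING1A with BMI1 and 575 bp for RING1B alone. The 2 ligases without BMI1 lay 925 bp from the next region, equal to the median of all regions. Of these 2-ligase regions, 60.5% were in the dense clusters defined next, and 81.4% (66.6 to 91.6) had another region within 10 kb. RING1B-only regions had another that near in 75.9% (71.5 to 79.9). RING1A-only and BMI1-only regions lay 1775 and 2375 bp from the next.

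Runs of regions with gaps of at most 10 kb formed 2415 clusters, of which 1641 held 1 region. The 137 clusters of 10 or more regions, called dense here, held 4041 regions, 51.6% of all. They spanned 6.94 Mb, 0.224% of the summed chromosome length. They contained 79.6% of regions with all 3 subunits, 86.9% of those with RING1B and BMI1, 70.1% of those with RING1A and BMI1 and 59.8% of RING1B-only regions. For RING1A alone it was 40.3% and for BMI1 alone 33.8%. Inside dense clusters 17.1% of regions had all 3 subunits and 26.6% BMI1 alone. Elsewhere 4.68% (4.03 to 5.40) had all 3 subunits and 55.5% (53.9 to 57.1) BMI1 alone.

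Clusters differed in makeup as well as size. The 3 with the most regions lay on chromosome 15 at 20420401 to 20578625 (149 regions), chromosome 4 at 49139051 to 49337100 (145) and chromosome Y at 58820026 to 58917525 (137). On chromosome 15, RING1A with BMI1 made up 63 regions, BMI1 alone 49 and all 3 subunits 6. On chromosome 4, all 3 subunits made up 55. On chromosome Y none lacked RING1B except 4 BMI1-only regions: 65 had RING1B with BMI1, 36 RING1B alone and 32 all 3. That single cluster of 97.5 kb held 22.4% (17.7 to 27.7) of all regions with RING1B and BMI1, and 7 clusters held at least 50% of them. A cluster of 50 regions on chromosome X at 61682326 to 61723125 held 33 RING1B-only regions.

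Neighbours tended to share their combination. The nearest region to one with all 3 subunits also had all 3 in 35.3% (32.1 to 38.6), against their 11.1% among all regions. For RING1B with BMI1 it was 28.6% against 3.71%, for RING1B alone 27.9% against 5.41%, for RING1A alone 28.5% against 16.1% and for BMI1 alone 58.7% against 40.6%. Other subunits were often listed near regions of a single subunit: 48.9% (44.1 to 53.8) of RING1B-only regions had a RING1A or BMI1 peak within 1000 bp, as did 32.9% of RING1A-only and 21.98% of BMI1-only regions. A region of any combination lay that near to 59.6% of RING1B-only, 38.4% of RING1A-only and 38.7% of BMI1-only regions.

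**Figure D4:**
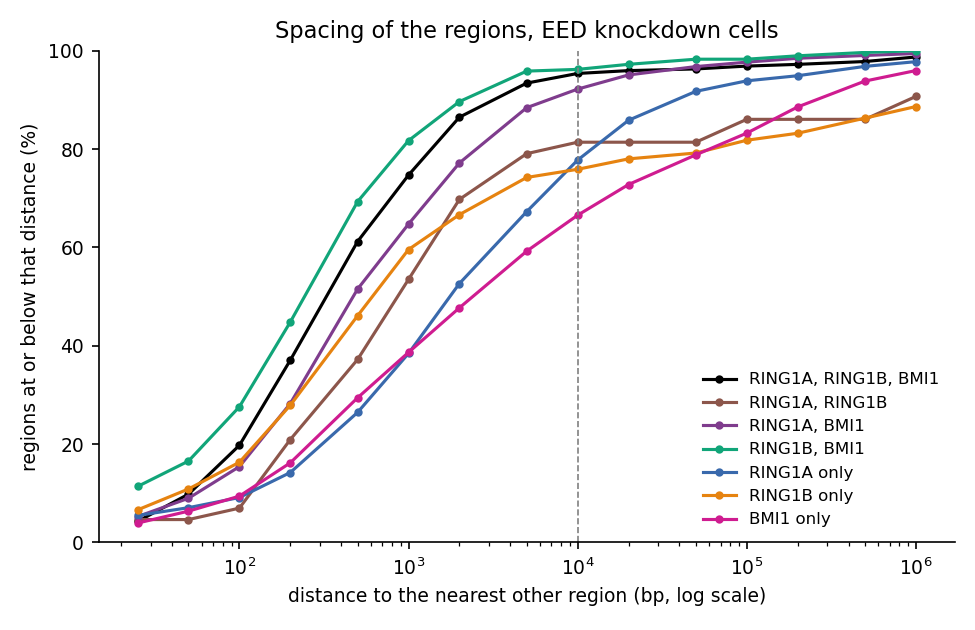
Lines give, for each combination, the share of regions (vertical axis, %) whose nearest other region of any combination lies at or below a given distance (horizontal axis, bp, log scale) in EED knockdown cells, with a dashed line at 10 kb. RING1B with BMI1 and all 3 subunits lie closest to another region, at medians of 250 and 325 bp, and BMI1 alone farthest, at 2375 bp.

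Without regard to clustering, knockdown H3K27me3 peaks lay most often on the combinations that pair BMI1 with a ligase. Of all regions, 40.6% overlapped a knockdown H3K27me3 peak. It was 93.4% (91.6 to 95.0) of regions with all 3 subunits, 90.7% (86.7 to 93.8) of those with RING1B and BMI1 and 64.2% (61.9 to 66.4) of those with RING1A and BMI1. Of single-subunit regions it was 51.1% (46.2 to 55.9) for RING1B, 19.4% (18.0 to 20.8) for BMI1 and 10.0% (8.41 to 11.8) for RING1A. The 2 ligases without BMI1 met it in 14 of 43 regions (32.6%, 19.1 to 48.5), below RING1B alone. Regions with all 3 subunits exceeded single-subunit regions by 73.7 points (71.5 to 75.5), and RING1B-only regions exceeded RING1A-only regions by 41.1 points (36.0 to 46.0). Between all 3 subunits and RING1B with BMI1 the difference was 2.73 points with an interval of -0.655 to 6.89.

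Peak length, peak height and crowding moved with this overlap, so the shares were also taken within classes of each. Among BMI1 peaks of 75 to 100 bp, 71.8% (55.1 to 85.0) of those with all 3 subunits lay in a region that met H3K27me3. Of those standing alone it was 10.95% (9.37 to 12.7). Among the tallest 25% of BMI1 peaks these shares were 98.8% and 52.8%. Among the lowest 25% they were 63.6% (45.1 to 79.6) and 13.6% (11.6 to 15.7). Overlap was counted over the whole merged region, which RING1A and RING1B peaks can widen, so these classes do not hold region length equal. Outside dense clusters, 89.3% (83.7 to 93.4) of regions with all 3 subunits and 11.3% (10.2 to 12.5) of single-subunit regions met H3K27me3. Of RING1B-only regions, 70.8% met it in dense clusters and 21.8% (15.8 to 28.7) elsewhere, where they stood close to all regions. Of all regions it was 58.8% in dense clusters and 21.2% elsewhere. For RING1A with BMI1 these shares were 69.6% (67.0 to 72.2) and 51.4%, so in dense clusters it did not exceed RING1B alone. H3K27me3 and the 3 subunits come from the same set of libraries, by culture description and chromosome naming, whereas EED and both uH2A antibodies come from the other set, so antibody and set cannot be told apart.

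The same positions were also read against the control H3K27me3 list, which is far longer, with 35368 peaks against 4205 in knockdown cells. Of all knockdown regions 20.1% lay on a control H3K27me3 peak. For regions with all 3 subunits the share was 93.4% with knockdown and 64.7% (61.4 to 67.8) with control H3K27me3 peaks. For RING1B with BMI1 it was 90.7% and 70.7%, for RING1A with BMI1 64.2% and 20.7% (18.9 to 22.7), and for RING1B alone 51.1% and 18.2%. RING1A-only regions had 10.0% and 10.5%.

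EED and the uH2A mark, whose lists form the other set of libraries, split the combinations along another line. Knockdown EED peaks met 7.31% of all regions, 15.2% (12.9 to 17.8) of those with all 3 subunits, 9.83% of those with RING1A and BMI1 and 7.496% (6.60 to 8.47) of BMI1-only regions. Regions with RING1B and BMI1 had 2.41%, RING1A alone 1.43% and RING1B alone 0.709%. Of BMI1-only regions, 20.3% had a rabbit uH2A peak (18.9 to 21.7), against 11.5% of all regions and 10.2% (8.23 to 12.4) of regions with all 3 subunits. Outside dense clusters that share of BMI1-only regions was 28.5% (26.6 to 30.5), against 18.0% of all regions there. Inside dense clusters BMI1-only regions had 4.19% and all regions 5.345%. All 3 subunits stood above BMI1 alone there at 9.72%, RING1A with BMI1 at 6.69% and RING1B with BMI1 at 5.95%. RING1A-only and RING1B-only regions met that antibody in 1.51% and 1.42%.

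Mouse uH2A peaks were rare at regions with RING1B and no RING1A. Knockdown peaks of this antibody met 10.5% of all regions, 14.5% (12.9 to 16.2) of those with RING1A and BMI1, 13.4% (11.6 to 15.4) of RING1A-only and 11.3% of regions with all 3 subunits. BMI1-only regions had 9.04% (8.06 to 10.1). The 2 ligases without BMI1 had 4 of 43 (9.30%, 2.59 to 22.1), an interval that includes the share of all regions. In dense clusters RING1A-only regions had 8.48% and BMI1-only regions 7.64%, against 9.58% of all regions there. It met 2 of the 290 regions with RING1B and BMI1 (0.690%, 0.0836 to 2.47) and 4 of the 423 RING1B-only regions (0.946%, 0.258 to 2.40). RING1B-only regions were 12.5 points below RING1A-only regions (interval -14.6 to -10.2). RING1B lay often on chromosomes X and Y, where the uH2A and EED lists have few peaks. On chromosomes 1 to 21 alone, mouse uH2A met 1.11% of 180 regions with RING1B and BMI1, 0.997% of 301 RING1B-only regions and 14.4% of 1155 RING1A-only regions.

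**Figure D5:**
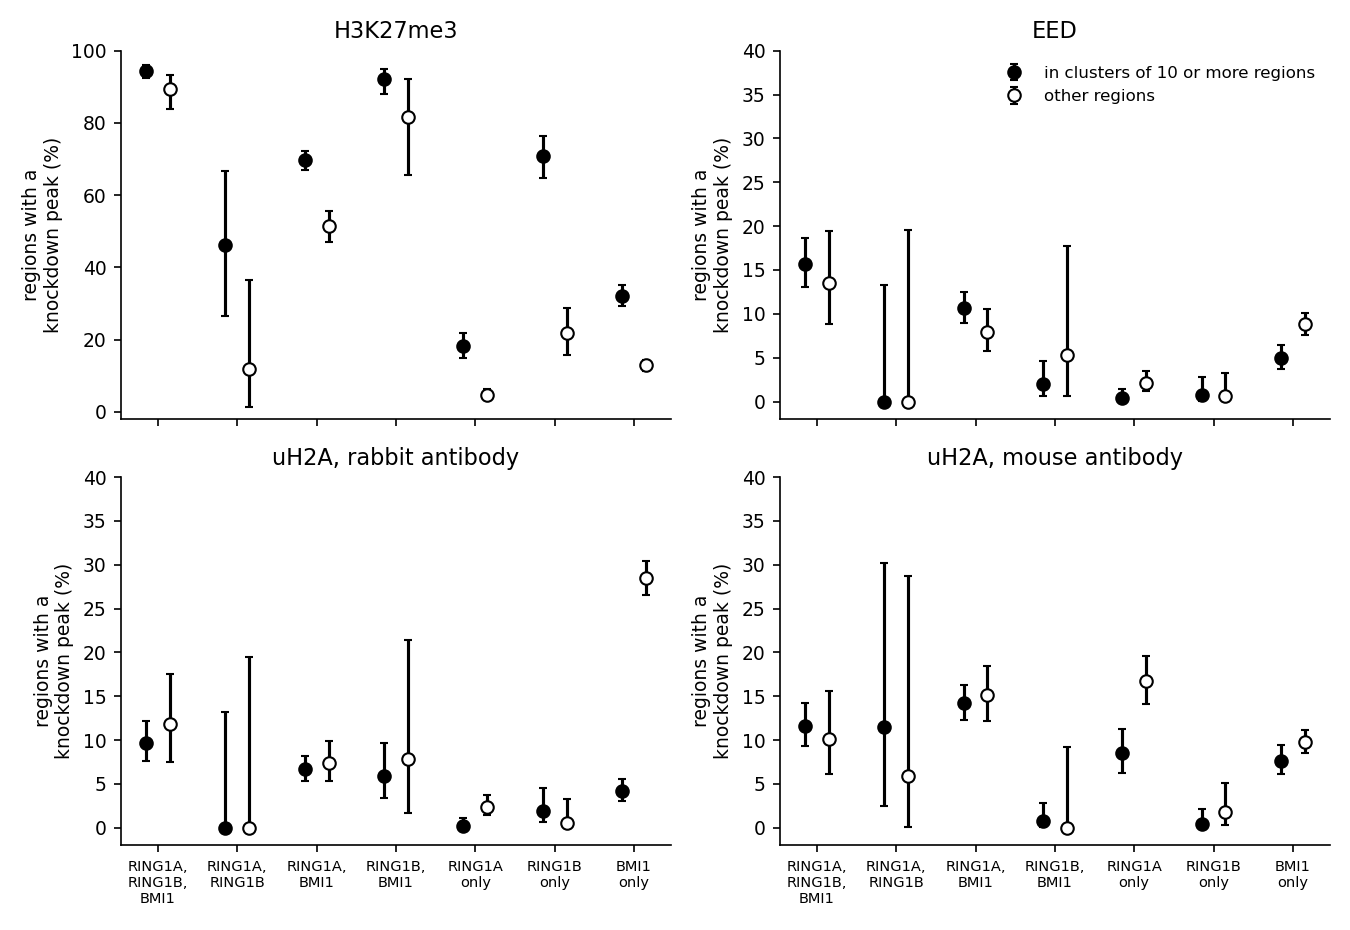
Points give the share of regions of each combination (horizontal axis) that overlap a knockdown peak of H3K27me3, EED or uH2A by either antibody (vertical axes, %, with a wider scale for H3K27me3), filled for regions in clusters of 10 or more and open for other regions, with exact 95% intervals. H3K27me3 lies on 94.5% and 89.3% of regions with all 3 subunits. Rabbit uH2A lies on 28.5% of BMI1-only regions outside dense clusters, against 18.0% of all regions there.

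Most knockdown regions also had a peak in control cells, except those with RING1B alone. Of all regions, 75.4% lay on a control peak of at least 1 of the 3 subunits. It was 91.6% (89.5 to 93.3) of regions with all 3 subunits, 88.5% with RING1A and BMI1, 73.0% with BMI1 alone, 71.7% with RING1B and BMI1 and 68.9% with RING1A alone. RING1B-only regions had 27.9% (23.7 to 32.4), 41.0 points below RING1A-only regions (interval -45.8 to -35.9). Control peaks of all 3 subunits were present at 33.6% of all knockdown regions. The share was 61.9% (58.6 to 65.1) of regions with all 3 in knockdown cells and 59.8% (57.4 to 62.1) of those with RING1A and BMI1. Regions with RING1A and RING1B but no BMI1 had 46.5% of only 43 (31.18 to 62.35), an interval that includes the share of all regions. Those with RING1B and BMI1 had 34.8%, close to all regions. BMI1-only regions had 20.4%, RING1A-only regions 20.2% and RING1B-only regions 2.84%. Control cells listed a RING1B peak at 1358 of the 1770 regions with RING1A and BMI1 (76.7%, 74.7 to 78.7), against 45.8% of all knockdown regions.

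BMI1-only regions met control EED and uH2A peaks more often than knockdown ones, and the control lists are the longer ones, with 1372 EED peaks in knockdown and 13082 in control cells. Of these 3175 regions, 7.496% had an EED peak in knockdown cells and 26.2% (24.7 to 27.8) in control cells. Rabbit uH2A met 20.3% of them in knockdown and 27.9% in control cells, and mouse uH2A 9.04% and 22.3%. Over all 7826 regions these shares were 7.31% and 16.7% for EED, 11.5% and 16.3% for rabbit uH2A, and 10.5% and 17.1% for mouse uH2A. For regions with all 3 subunits the EED shares were 15.2% in knockdown and 14.7% (12.4 to 17.2) in control cells, and for RING1B-only regions 0.709% and 0.236%.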

How the data were processed

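ChIP-seq peak lists of DU145 cells were analysed, 1 list for each of 7 antibodies in EED knockdown and scramble control cells. The submitters' processing notes name Bowtie and the build hg19. Names of the deposited files point to the peak caller HPeak. Software versions, caller settings and any input or IgG library are unknown. The deposited height column was treated as the signal the authors' caller wrote, without a stated normalisation. The deposited length and offset are in bp, and the deposited score is a negative number of undefined meaning, used only as another ranking. Numbers after the autosomes in the EED and uH2A lists were read as X and Y.

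Knockdown RING1A, RING1B and BMI1 peaks sharing at least 1 bp were merged. Height ranks used peaks with a height above 0. This choice, the dense clusters and the comparisons within them came after the data had been seen. Regions were named as the 2 with the highest mean height percentile and the longest of each combination, and the 3 clusters with the most regions. Other positions and chromosomes were named after their values were seen. Members and lists were chosen with earlier results of these data known. Depth per library is unknown, so the numbers of peaks limit precision. The merging was tested on simulated lists with planted combinations. The planted regions lay far apart and held no extra peaks, so that test does not cover merging at the spacing inside dense clusters. Alternatives are given in the closing section. Computations used Python 3.11.15, numpy 2.4.6, pandas 2.3.3, scipy 1.17.1 and matplotlib 3.10.9.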

Additional observations from a re-analysis of the deposited data

How the results depend on the processing

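No paired analysis was possible because each antibody has 1 library in each cell line, and for the same reason none could be left out. Across 8 alternatives, none of the 29 values of the 4 differences changed sign. Of all 50 values, which include counts and a length that cannot change sign, 26 stayed within 1.5 times the count or within the interval. The 29 and the 26 include tall BMI1 peaks of height above 0. That value repeats the main value by construction, because height ranks already used such peaks only. The alternatives outside clusters of 10 or more regions and by score were chosen after seeing the data. In the chromosome result, chromosome 14 was kept throughout. The causes were not tested. With peaks linked within 1000 bp, regions with all 3 subunits numbered 562, their median length was 900 bp, and the differences between them and single-subunit regions were 37.5 points (within 10 kb) and 78.6 points (on H3K27me3); that in tall BMI1 peaks, against BMI1 alone, was 52.5 points. When each list was limited to peaks reaching its median height, there were 375 regions with all 3 subunits and 1214 with BMI1 only, and the differences were 73.1 points (tall BMI1 peaks), 22.8 points (within 10 kb), -23.9 points (chromosome 14) and 55.9 points (H3K27me3). With equal numbers of tallest peaks these were 510 and 337 regions, a median of 375 bp, and 45.4, 20.3, -13.02 and 43.6 points. Peaks of height above 0, which leaves out chromosomes 22, X and Y, gave -19.1 points for chromosome 14. Outside clusters of 10 or more regions, 177 regions had all 3 subunits and 2102 BMI1 only, the median length was 275 bp, and the differences were -19.4 points for chromosome 14 and 77.99 points for H3K27me3. Ranking by score gave 69.7 points for tall BMI1 peaks, against 69.6 by height.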

Other observations

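The peaks whose height is listed as 0 carry scores, close to those of the other peaks for RING1A and BMI1 and more negative for RING1B. Their median score was -0.808 in the RING1A, -1.11 in the RING1B and -0.881 in the BMI1 knockdown list, against -0.802, -0.807 and -0.841 for the other peaks of those lists. In the RING1B list these peaks were 22.5% of all, in the RING1A list 11.2% and in the BMI1 list 13.2%. A ranking that takes the listed 0 as low therefore places the RING1B peaks of chromosomes X and Y, where RING1B without RING1A gathered, at the bottom of the list.

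High-signal windows, where at least 2 of the other 4 knockdown lists have a peak over 10 times their median height, numbered 11. With their neighbours they held 13.4% of regions with RING1B and BMI1, 9.24% of those with all 3 subunits and 8.98% of RING1B-only regions, against 1.75% of RING1A-only and 1.39% of BMI1-only regions. RING1A with BMI1 had 2.77% and the 2 ligases without BMI1 2.33%. Of all 7826 regions, 7553 lay outside these places.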
